A study of Mus musculus with 6 samples.

Results

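The enzymes that make serine and pass its carbon to folate were followed in macrophages that lack ATP citrate lyase (Acly), the enzyme that splits cytosolic citrate into acetyl-CoA and oxaloacetate. They comprised 9 of the 24562 gene symbols in the count table. Phgdh, Psat1 and Psph formed the serine synthesis group, with 3 genes. Shmt2, Mthfd2, Mthfd1l and Aldh1l2 formed the mitochondrial arm, with 4 genes, and Shmt1 and Mthfd1 the cytosolic arm, with 2 genes. They were listed by the reaction and compartment of each enzyme, and each gene was represented by its most counted transcript.

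Serine is built from the glycolytic intermediate 3-phosphoglycerate by Phgdh, Psat1 and Psph, in that order. The serine hydroxymethyltransferases then split serine into glycine and a one-carbon unit carried by tetrahydrofolate, Shmt2 in mitochondria and Shmt1 in the cytosol. In mitochondria, Mthfd2 oxidises the unit and Mthfd1l releases it as formate, while Aldh1l2 burns it to carbon dioxide with a gain of NADPH. In the cytosol the trifunctional enzyme Mthfd1 takes up formate for purine, thymidylate and methionine synthesis. Several of these genes, among them Phgdh, Psat1, Shmt2, Mthfd2 and Aldh1l2, are known targets of ATF4, a transcription factor that responds to amino acid shortage, and the folate arms are known to be more active in dividing cells.

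RNA came from bone marrow-derived macrophages (BMDMs), grown from mouse bone marrow in L929-conditioned medium and left naive, that is, without a stimulus. Control BMDMs were from Cre-negative Acly fl/fl mice, and AclyM-KO BMDMs from Acly fl/fl mice that also carried Cre under the Lyz2 promoter, which is active in myeloid cells. Both groups were thus homozygous for the loxP-flanked Acly allele, on a C57BL/6J background, and the series text gives female donors, although the study's methods describe adult mice of both sexes for work in culture. There were 3 control and 3 AclyM-KO libraries. The study's legends describe such replicates as technical replicates of pooled mice, so the p-values measure the spread between these libraries and need not cover the variation between mice.

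Over 1 transcript per gene the libraries held between 11120034 and 25814853 counts, and AclyM-KO replicate 2 was the deepest, with 2.20 times the mean total of the others. That library also stood apart in its profile. Its root mean square log2 difference from the other AclyM-KO libraries was 0.354 and 0.336, against 0.277 between those libraries and 0.26 to 0.272 among the controls. Acly itself was at 220.4, 233 and 235.8 CPM (counts scaled to a common library size) in control and at 93.3, 98.9 and 98.3 CPM in AclyM-KO libraries, lower in every AclyM-KO library, with a log2 fold change of -1.25 ± 0.07 (SE) and an edgeR adjusted p of 5.58e-07. All 7 macrophage markers were detected. None of them rose and 3 fell, beside 5.65% of all genes tested that fell. Those 3 were Lyz2 (-1.05 on the log2 scale), the gene whose promoter drives Cre, Mertk (-0.67) and Csf1r (-0.48). The summed level of the macrophage markers was 21470 to 22470 CPM in control and 12440 to 15060 CPM in AclyM-KO libraries, and without Lyz2 it was 8422 to 8626 and 6831 to 8085 CPM. Adgre1 (0.07, edgeR adjusted p = 0.509), Cd68 (0.0088, adjusted p = 0.955), Itgam (0.0011, adjusted p = 0.993) and Fcgr1 (-0.18, adjusted p = 0.267) did not pass the threshold. Summed levels of B and T cell markers stayed at or below 0.299 CPM, those of stromal markers at or below 0.718 CPM, and those of neutrophil markers were 27.5 to 31.1 CPM in control and 28.7 to 30.4 CPM in AclyM-KO libraries. The dendritic cell markers summed to 14.6 to 20.1 CPM in control and 20.5 to 30.1 CPM in AclyM-KO libraries, nearly all from Itgax (0.53 on the log2 scale, edgeR adjusted p = 0.0629), while Flt3, Zbtb46 and Ccr7 did not pass the filter.

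The sequence before the start site of 4 members is shown because these genes bracket the results: Phgdh and Mthfd2 had the largest differences between genotypes among the members tested, and Shmt2 and Shmt1 encode the same reaction in 2 compartments. Each is the 250 bases before the RefSeq start site in build GRCm38.p6, given 5′ to 3′ on the strand of the gene, and for Mthfd2 this start lies inside the gene span given further on, which reaches to an outer one. Capitals mark CCAAT or its reverse complement ATTGG.
Phgdh, chr3:98339970-98340219, minus strand: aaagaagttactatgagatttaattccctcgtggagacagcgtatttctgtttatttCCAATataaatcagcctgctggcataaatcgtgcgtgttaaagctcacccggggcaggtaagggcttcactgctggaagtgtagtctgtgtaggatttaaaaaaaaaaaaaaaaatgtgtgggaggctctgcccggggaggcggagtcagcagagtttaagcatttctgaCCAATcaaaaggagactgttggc
Mthfd2, chr6:83317605-83317854, minus strand: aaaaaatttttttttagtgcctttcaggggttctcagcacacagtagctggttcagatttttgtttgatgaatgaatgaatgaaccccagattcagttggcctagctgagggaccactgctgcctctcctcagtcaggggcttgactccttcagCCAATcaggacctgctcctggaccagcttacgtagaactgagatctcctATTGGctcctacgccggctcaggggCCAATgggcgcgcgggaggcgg
Shmt2, chr10:127522445-127522694, minus strand: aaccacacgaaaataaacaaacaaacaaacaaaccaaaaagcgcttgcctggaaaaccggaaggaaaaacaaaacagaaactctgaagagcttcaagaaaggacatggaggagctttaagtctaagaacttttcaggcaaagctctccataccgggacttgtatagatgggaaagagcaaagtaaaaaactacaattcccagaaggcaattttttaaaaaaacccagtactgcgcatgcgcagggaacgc
Shmt1, chr11:60811266-60811515, minus strand: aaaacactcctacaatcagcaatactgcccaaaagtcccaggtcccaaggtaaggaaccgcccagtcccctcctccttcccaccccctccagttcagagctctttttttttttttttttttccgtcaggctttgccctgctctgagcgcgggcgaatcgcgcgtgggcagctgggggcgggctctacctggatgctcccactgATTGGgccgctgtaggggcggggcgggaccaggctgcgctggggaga
The Mthfd2 window held 3 CCAAT matches, the Phgdh window 2, the Shmt1 window 1 and the Shmt2 window 0. An entry existed for 8 of the 9 members, all but Aldh1l2. Of the others, Psph had 2 matches, Mthfd1 had 1, Mthfd1l had 0, and Psat1 had 2 before its outer start site and 0 before its inner one. CCAAT occurred on either strand in 33.8% of all 32851 promoter windows of this length. The E-box CACGTG (6.02% of all windows), the ATF4 composite element TGATGNAA (3.45%) and the sterol element TCACNCCAC (1.05%), each also sought on the opposite strand, were not among the letters of any member's window. A match to letters is a description of the window and not a measured binding site.

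Phgdh, Shmt2 and Mthfd2 rose in AclyM-KO macrophages, and no member fell. These were 3 of the 8 members that passed the filter on low counts, against 6.70% of all 11470 genes tested that rose and 5.65% that fell at an edgeR adjusted p of at most 0.05. Aldh1l2 did not pass the filter and was not tested. Levels in every AclyM-KO library lay above every control library for 6 of the 9 members (Phgdh, Psat1, Shmt2, Mthfd2, Aldh1l2 and Mthfd1) and below for 1 (Shmt1), where 16.3% and 16.6% of all tested genes did so. Aldh1l2 is outside those tested genes, and its highest control library and lowest AclyM-KO library held 9 counts each. Because whole cultures were measured, fewer cells of a type and less RNA per cell cannot be told apart.

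**Figure D1:**
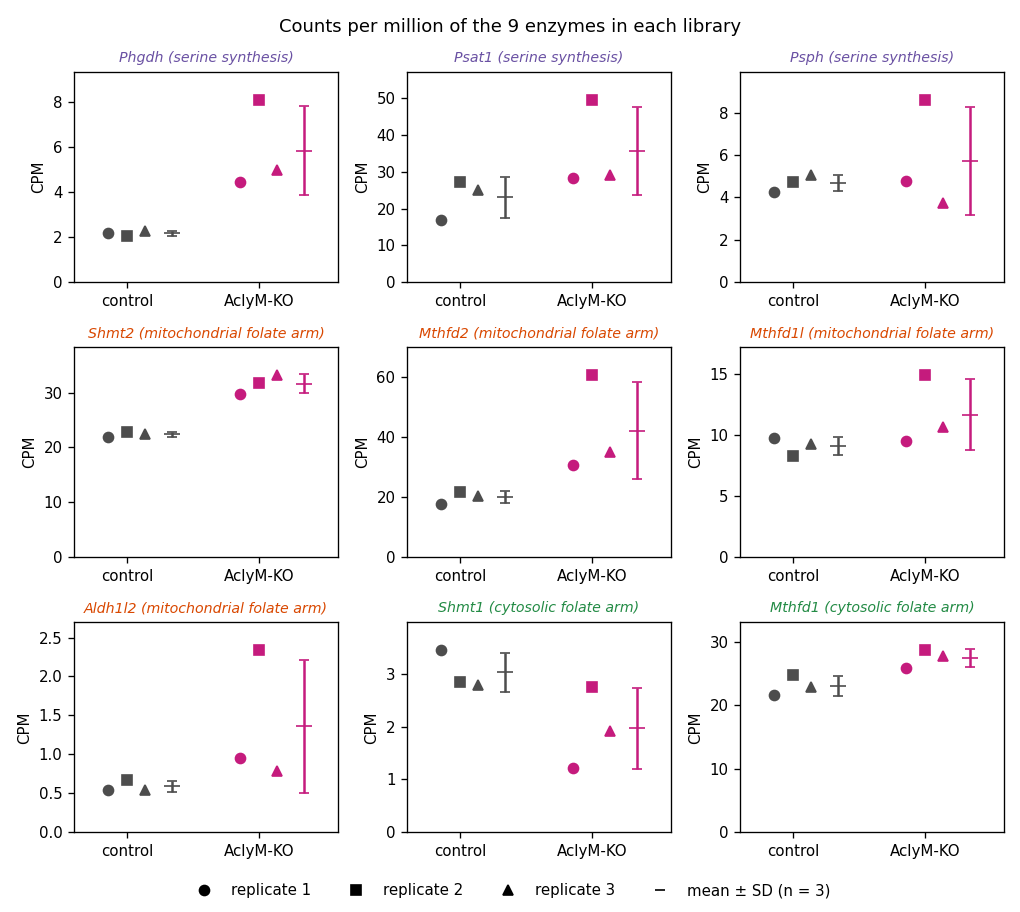
CPM (vertical axes from 0) of the 9 enzymes in each of 3 control and 3 AclyM-KO libraries, with a symbol for each replicate and the mean ± SD beside them. Phgdh, Shmt2 and Mthfd2 lie higher in every AclyM-KO library, Shmt1 lies lower, and AclyM-KO replicate 2 is the highest of its group for all members but Shmt2.

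Phgdh, which catalyses the committed step of serine synthesis (chr3:98313171-98339969), showed the largest difference. Its level was 2.18, 2.02 and 2.25 CPM in control replicates 1, 2 and 3 and 4.44, 8.09 and 4.97 CPM in AclyM-KO replicates 1, 2 and 3. The groups did not overlap, and AclyM-KO replicate 2 was far above the other AclyM-KO libraries. The fold difference was 2.81, a log2 fold change of 1.49 ± 0.26 (SE; 95% interval 0.92 to 2.07), with an edgeR adjusted p of 0.00427. Behind it stood 24 to 27 counts per control library and 51, 214 and 57 counts in AclyM-KO libraries. Without AclyM-KO replicate 2 the log2 fold change was 1.13 (edgeR adjusted p = 0.00254).

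Psat1, the aminotransferase of the next step (chr19:15905123-15925059), was at 16.8, 27.2 and 25.1 CPM in control and at 28.2, 49.6 and 29.1 CPM in AclyM-KO libraries. The AclyM-KO values were all higher, but replicates 1 and 3 lay close to the upper controls. Its log2 fold change was 0.65 ± 0.22 (SE), with an interval of 0.17 to 1.13 and an edgeR adjusted p of 0.0759, which did not pass the threshold. The call depended on the fit: Psat1 passed with no filter on low counts (adjusted p = 0.00755) and with the replicate number as a block (adjusted p = 0.00503). It was 0.79 (adjusted p = 0.0382) without AclyM-KO replicate 1, where 7.54% of genes tested rose, and 0.31 (adjusted p = 0.13) without AclyM-KO replicate 2.

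Psph, the phosphatase that releases serine (chr5:129765558-129787443), was at 4.27, 4.71 and 5.05 CPM in control and at 4.79, 8.62 and 3.75 CPM in AclyM-KO libraries. The groups overlapped, with AclyM-KO replicate 3 the lowest and replicate 2 the highest of the 6. The log2 fold change of 0.36 ± 0.27 (SE; interval -0.24 to 0.96; edgeR adjusted p = 0.435) rested on replicate 2, and was -0.13 without it. An exon of Psph overlaps Cct6a on the opposite strand, which stood at 121 to 157 CPM; the RefSeq spans share 88 bases. The counting used default settings, whose strand option is not spelled out in the sources used here.

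In the mitochondrial arm, Shmt2 (chr10:127517123-127522444) had the steadiest difference of all members. It was at 21.9, 22.9 and 22.5 CPM in control and at 29.8, 31.7 and 33.2 CPM in AclyM-KO libraries, so each group spanned a narrow range and the ranges lay apart. Its fold difference was 1.41 (log2 fold change 0.49 ± 0.09 (SE), interval 0.29 to 0.69, edgeR adjusted p = 0.00526). Unlike Phgdh and Mthfd2, it was not highest in AclyM-KO replicate 2. Its opposite-strand neighbour Ndufa4l2, which shares 32 bases of span, had at most 2 counts in a library.

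Mthfd2 (chr6:83305704-83326011), the dehydrogenase and cyclohydrolase that is low in most resting adult tissues, was at 17.8, 21.7 and 20.5 CPM in control and at 30.7, 60.8 and 35 CPM in AclyM-KO libraries. The lowest AclyM-KO library was well above the highest control. The fold difference was 2.14, a log2 fold change of 1.10 ± 0.22 (SE; interval 0.63 to 1.57; edgeR adjusted p = 0.00715). The size leaned on AclyM-KO replicate 2, without which it was 0.71 (adjusted p = 7.66e-05).

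Mthfd1l, the formate-releasing synthetase (chr10:3972892-4167081), was at 9.73, 8.3 and 9.29 CPM in control and at 9.49, 15 and 10.6 CPM in AclyM-KO libraries. Control replicate 1 exceeded AclyM-KO replicate 1, so the groups overlapped. Its log2 fold change of 0.40 ± 0.18 (SE; interval 0.01 to 0.78) did not pass the threshold (edgeR adjusted p = 0.172), and was 0.15 without AclyM-KO replicate 2.

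Aldh1l2, the formyl-tetrahydrofolate dehydrogenase of mitochondria (chr10:83487447-83534146), was hardly detected. Control libraries held 6, 9 and 6 counts and AclyM-KO libraries 11, 62 and 9 counts, or 0.546, 0.673 and 0.541 CPM against 0.958, 2.34 and 0.785 CPM. Values in AclyM-KO libraries were higher on this scale, but apart from replicate 2 the counts were small: 6 counts have an exact 95% Poisson interval of 2.2 to 13.1 and 11 counts one of 5.49 to 19.7, for counting error only. With no filter on low counts it had a log2 fold change of 1.34 (edgeR adjusted p = 0.05002), just outside the threshold. In GENCODE the gene D10Wsu102e, at 39.8 to 48.5 CPM, overlaps Aldh1l2 on the opposite strand, although the RefSeq spans lie 118611 bases apart.

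The cytosolic members had differences of opposite sign, and neither passed the threshold. Shmt1 (chr11:60788897-60811265) was at 3.46, 2.84 and 2.8 CPM in control and at 1.22, 2.76 and 1.92 CPM in AclyM-KO libraries. All AclyM-KO values were lower, replicate 2 by a narrow margin. With 14 to 73 counts per library the difference was imprecise: the log2 fold change was -0.53 ± 0.29 (SE; interval -1.16 to 0.10; edgeR adjusted p = 0.264). Without AclyM-KO replicate 2 it was -0.94 (adjusted p = 0.0405), past the threshold, in a fit where 8.92% of genes fell. Smcr8 lies on the opposite strand 609 bases away from the RefSeq span of Shmt1, although its GENCODE model reaches into it. It stood at 185.4 to 198.8 CPM, with far more counts than Shmt1 itself and a log2 fold change of 0.08 (edgeR adjusted p = 0.45).

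Mthfd1 (chr12:76254406-76319820) was at 21.6, 24.7 and 22.9 CPM in control and at 25.9, 28.8 and 27.7 CPM in AclyM-KO libraries. The AclyM-KO values were higher throughout, by a small amount. Its log2 fold change was 0.25 ± 0.10 (SE; interval 0.04 to 0.47), with an edgeR adjusted p of 0.12 that did not pass the threshold. In GENCODE the gene Gm47525 overlaps it on the opposite strand.

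**Figure D2:**
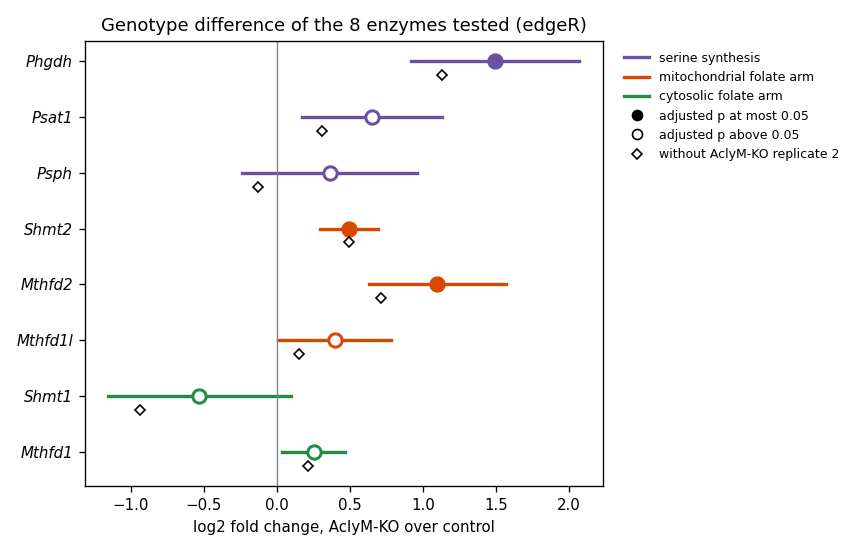
Log2 fold change of AclyM-KO over control (horizontal axis) for the 8 enzymes tested, with bars for the 95% interval, filled circles for an edgeR adjusted p of at most 0.05, and diamonds for the value without AclyM-KO replicate 2. Phgdh (1.49), Mthfd2 (1.10) and Shmt2 (0.49) are filled, Shmt1 is the lowest, and the diamond of Shmt2 lies on its circle while those of the other serine synthesis and mitochondrial enzymes lie further left.

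To compare members with each other, counts were divided by transcript length (RPKM, here CPM per kilobase of transcript). In control BMDMs Psat1 (10.1 ± 2.39 RPKM, SD, n = 3), Shmt2 (9.79 ± 0.209) and Mthfd2 (9.59 ± 0.943) led, and their ranges overlapped. Mthfd1 followed at 7.12 ± 0.493 RPKM, below Shmt2 and Mthfd2 in every library but overlapping in range with Psat1. Then came Psph (2.7 ± 0.225) and Mthfd1l (2.48 ± 0.2), which overlapped. Phgdh (1.14 ± 0.0641) and Shmt1 (1.06 ± 0.129) also overlapped, and Aldh1l2 was last at 0.0973 ± 0.0124 RPKM. The committed enzyme Phgdh was thus among the lowest transcripts of the set, and its partner Psat1 among the highest.

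In AclyM-KO BMDMs the leading group was again Mthfd2 (20.2 ± 7.79 RPKM), Psat1 (15.6 ± 5.28) and Shmt2 (13.8 ± 0.757), of which Psat1 overlapped with both others in range while Mthfd2 lay above Shmt2 in every library. Mthfd1 came next at 8.47 ± 0.454 RPKM. Phgdh (3.08 ± 1.04) had joined Psph (3.3 ± 1.48) and Mthfd1l (3.19 ± 0.786), with neighbouring ranges that overlapped, while Shmt1 (0.688 ± 0.27) lay below them and Aldh1l2 (0.226 ± 0.142) was again last.

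Summed over its 4 members, the mitochondrial arm was at 20.9, 22.8 and 22.3 RPKM in control and at 30.5, 47.5 and 34.3 RPKM in AclyM-KO libraries. The cytosolic arm of 2 members was at 7.86, 8.63 and 8.05 RPKM in control and at 8.4, 9.84 and 9.23 RPKM in AclyM-KO libraries. Means of AclyM-KO over control were 1.7 for the mitochondrial and 1.12 for the cytosolic sum. The mitochondrial sums lay apart and the cytosolic ones overlapped. The arms were not matched, since Aldh1l2 was in the mitochondrial sum and its cytosolic counterpart Aldh1l1 was in neither. Aldh1l1 was at 8.82, 9.97 and 9.28 RPKM in control and at 12.1, 11.8 and 11.5 RPKM in AclyM-KO libraries. Serine synthesis, at 11, 15.7 and 15.1 RPKM in control and 17.4, 30.9 and 17.5 RPKM in AclyM-KO libraries, had a ratio of means of 1.58. Its sums also lay apart.

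The mitochondrial sum was 2.66, 2.64 and 2.77 times the cytosolic one in control and 3.63, 4.82 and 3.72 times in AclyM-KO libraries. Its make-up differed as well. Mthfd2 gave 41% to 45.7% of the mitochondrial sum in control and 48.3%, 61.4% and 48.9% in AclyM-KO libraries, and Shmt2 gave 43.9% to 45.9% and 42.7%, 29.2% and 42.3%. These sums rest on members described above, without Aldh1l1, and were given no test.

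Ratios between enzymes of the same step do not depend on the scaling between libraries. Shmt2 over Shmt1, per transcript length, was 7.92, 10.1 and 10 in control and 30.5, 14.4 and 21.6 in AclyM-KO libraries. Every AclyM-KO ratio was higher. Control libraries had a mean log2 ratio of 3.21 ± 0.20 and AclyM-KO libraries one of 4.40 ± 0.55 (SD, n = 3 each), a difference of 1.19, with a two-sided exact permutation p of 0.10, the smallest that 3 against 3 libraries allow (0.20 adjusted over 2 ratios by Benjamini-Hochberg). Since the design cannot reach 0.05, the size and the separation of the groups are what these data give. Shmt1 supplied few counts, and the highest ratio was in AclyM-KO replicate 1, with 14 Shmt1 counts.

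Mthfd1l over Mthfd1 compares the enzymes that release formate in mitochondria and take it up in the cytosol. Control libraries gave 0.399, 0.296 and 0.358 and AclyM-KO libraries 0.324, 0.46 and 0.339, so the groups overlapped. The difference of mean log2 ratios was 0.09 (exact permutation p = 0.70, two-sided; 0.70 adjusted), and it was -0.07 without AclyM-KO replicate 2 and -0.03 without control replicate 2. Mthfd2 over Mthfd1, a pair chosen after the values were seen and therefore not tested, was 1.29, 1.36 and 1.39 in control and 1.85, 3.28 and 1.96 in AclyM-KO libraries. The groups thus lay apart for the Shmt2 and Mthfd2 ratios and overlapped for that of Mthfd1l.

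**Figure D3:**
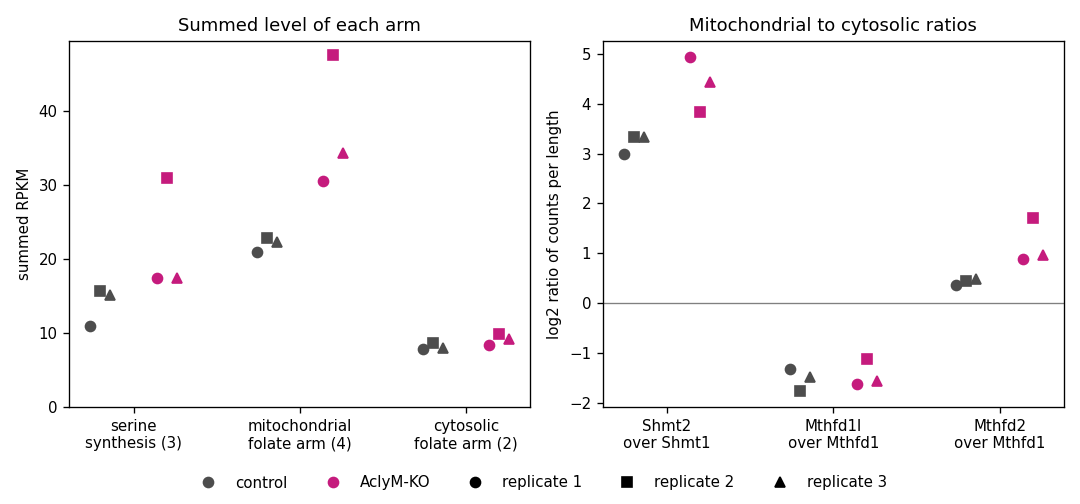
Left, summed RPKM of the serine synthesis, mitochondrial and cytosolic members (number of genes in brackets) in each library, and right, log2 ratios of mitochondrial to cytosolic enzymes per transcript length, with colour for genotype and a symbol for each replicate. Groups lie apart for the serine synthesis sum and the mitochondrial sum (20.9 to 22.8 against 30.5 to 47.5 RPKM). They also lie apart for Shmt2 over Shmt1 and Mthfd2 over Mthfd1. They overlap for the cytosolic sum, which leaves out Aldh1l1, and for Mthfd1l over Mthfd1.

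Members also differed in how far AclyM-KO replicate 2 departed from its group. Its CPM over the mean of AclyM-KO replicates 1 and 3 was 1.72 for Phgdh, 1.73 for Psat1, 2.02 for Psph, 1.85 for Mthfd2, 1.49 for Mthfd1l, 2.69 for Aldh1l2 and 1.76 for Shmt1. It was 1.01 for Shmt2 and 1.07 for Mthfd1. Shmt2 and Mthfd1 were thus level across AclyM-KO libraries while the other members peaked in replicate 2. In the same library Atf4 was at 1.38, Asns at 1.58, Slc7a5 at 1.44 and the proliferation marker Mki67 at 1.42 times the mean of the other AclyM-KO libraries. With this library thinned to the mean total of the others, Phgdh, Mthfd2 and Shmt2 were at log2 fold changes of 1.41, 1.10 and 0.51, all past the threshold, and Shmt1 at -0.72, which was not. The part of Atf4, its targets and Mki67 in the results was not tested.

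**Figure D4:**
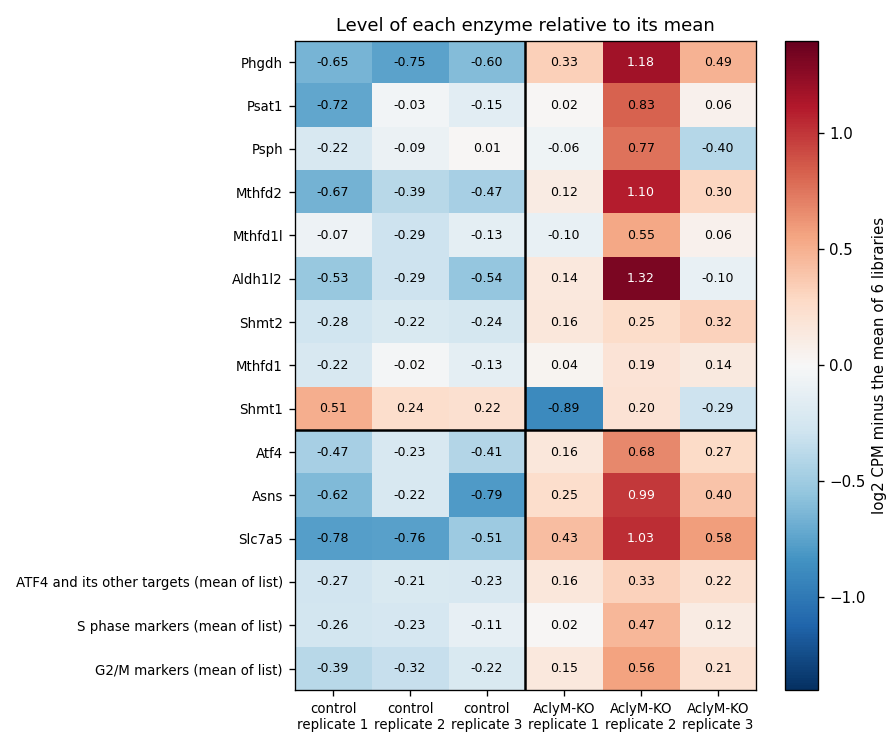
Log2 CPM of each enzyme minus its mean over the 6 libraries (colour and printed value), with Atf4, Asns, Slc7a5 and the means of the ATF4, S phase and G2/M lists below the line. Phgdh, Mthfd2 and Slc7a5 peak in AclyM-KO replicate 2 (1.18, 1.10 and 1.03), Shmt2 is level across the AclyM-KO libraries (0.16 to 0.32), and Shmt1 runs the other way in AclyM-KO replicate 1 (-0.89).

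The profile over the 6 libraries most like that of Phgdh, by the root mean square difference of centred log2 CPM among genes at a mean of at least 10 CPM, was that of Slc7a5 (0.105), followed by Rnd3 (0.117). Nptx1 (0.0856) and Zranb3 (0.0968) came closest to Mthfd2, Pcdhgc3 (0.025) to Shmt2, and Slc7a1 (0.11) and Efr3b (0.111) to Psat1. For Psph the nearest were Hells (0.111) and Gmnn (0.117), and for Mthfd1l Abracl (0.0592) and Larp7 (0.0599). Mthfd1 was matched most closely by Bhlhe41 (0.0224) and Dusp3 (0.0275), and Shmt1 only loosely, by Ifi209 (0.214) and Gbp3 (0.216).

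Around the members, 66 genes of 6 further pathway lists were examined, of which 52 passed the filter. Of these 9 rose (17.3%) and 2 fell (3.85%), beside the 6.70% and 5.65% of all genes. Folate interconversion enzymes other than the members numbered 14, and of the 13 tested 2 rose and 1 fell (median log2 fold change 0.10). Tyms, the thymidylate synthase that uses a folate one-carbon unit for DNA synthesis, was at 5.53 to 6.77 CPM in control and 7.83 to 10.2 CPM in AclyM-KO libraries (log2 fold change 0.56, edgeR adjusted p = 0.0445). Ggh, which trims the glutamate tail of folates in lysosomes, was at 73.9 to 85 CPM against 55.5 to 66.4 CPM (-0.40, adjusted p = 0.0128).

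Aldh1l1, the cytosolic counterpart of Aldh1l2, rose as well, from 26.9, 30.4 and 28.3 CPM in control to 37, 36 and 35.2 CPM in AclyM-KO libraries. Its log2 fold change was 0.34 ± 0.09 (SE), with an edgeR adjusted p of 0.0298. Per transcript length Aldh1l2 stood at 0.0103, 0.0112 and 0.00968 of Aldh1l1 in control and at 0.0131, 0.0329 and 0.0113 of it in AclyM-KO libraries, and exons of Aldh1l1 overlap 2 other annotated genes. Mthfd2l, the mitochondrial paralogue of Mthfd2, was at 2.91, 2.09 and 1.44 CPM in control and at 3.48, 3.25 and 2.71 CPM in AclyM-KO libraries (0.56, edgeR adjusted p = 0.201), and its groups overlapped.

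Among genes of glycine handling 4 of 9 were tested and 1 rose: Gcat, a mitochondrial enzyme that yields glycine from threonine breakdown, at 2.62 to 2.77 CPM in control and 5.83 to 6.81 CPM in AclyM-KO libraries (log2 fold change 1.21, edgeR adjusted p = 0.00172). Gldc and Amt of the glycine cleavage system did not pass the filter, and Tdh of threonine breakdown had 0 counts in every library. Transporters of folate and serine had 3 genes that rose among 10 tested of 12, all carriers of neutral amino acids: Slc1a4 (1.63, adjusted p = 0.00213), Slc38a2 (0.72, adjusted p = 9.70e-05) and Slc1a5 (0.47, adjusted p = 0.0089). The mitochondrial folate carrier Slc25a32 was at 0.41 with an adjusted p of 0.0571 and did not pass; it was named after its value was seen.

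Purine synthesis, a main use of cytosolic one-carbon units, had 2 genes that rose and 1 that fell among 12 tested, with a median of 0.06. The genes that rose, Impdh2 (0.40, edgeR adjusted p = 0.0489) and Impdh1 (0.35, adjusted p = 0.0369), act on the way to guanine nucleotides and use no folate, and Prps2, which makes the ribose precursor, fell (-0.27, adjusted p = 0.0468). In the methionine cycle and transsulfuration list 1 of 8 tested of 11 rose, Ahcy, which clears S-adenosylhomocysteine (0.83, adjusted p = 0.0072). None of the 5 tested of 8 other serine users, for sphingolipid and phosphatidylserine synthesis and serine breakdown, passed the threshold, with a median of -0.05.

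Atf4 rose from 109.6, 129.4 and 113.9 CPM in control to 169, 242.1 and 182.7 CPM in AclyM-KO libraries, with no overlap. Its log2 fold change was 0.75 ± 0.12 (SE), with an edgeR adjusted p of 0.00248. In the list of Atf4 and its other targets, which counts Atf4 itself, 8 of 16 tested rose and none fell (median 0.33). Of all genes tested 6.70% rose and 5.65% fell. The largest differences were of the amino acid carrier Slc7a5 (1.42, adjusted p = 0.000326), the pseudokinase Trib3 (1.37, adjusted p = 0.00205) and asparagine synthetase Asns (1.12, adjusted p = 0.00371). The stress genes Ddit3 (0.18, adjusted p = 0.406), Ddit4 (0.10, adjusted p = 0.819) and Sesn2 (0.13, adjusted p = 0.521), named after their values were seen, did not pass. Myc, another known activator of serine and folate genes, was at 14.8, 19.9 and 15.1 CPM in control and 17.2, 24.7 and 23 CPM in AclyM-KO libraries (0.39, adjusted p = 0.134), and none of 7 genes tested of Myc and its partners passed.

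Of the S phase markers 6 of 15 rose (median 0.40) and of the G2/M markers 13 of 15 (median 0.64), beside 6.70% of all genes, and none fell in either list. Mki67 was at 145.4, 167.3 and 193.9 CPM in control and 215.3, 317.8 and 230.8 CPM in AclyM-KO libraries (log2 fold change 0.60, edgeR adjusted p = 0.017). S phase markers were led by Uhrf1 (0.86), Rrm2 (0.66) and Mcm5 (0.58), and G2/M markers by Bub1 (0.86), Kif11 (0.85) and Aurka (0.84). The summed level of the S phase list was 631.4 to 684.2 CPM in control and 775.8 to 1067 CPM in AclyM-KO libraries, and that of the G2/M list 560.2 to 652.3 and 812.7 to 1136 CPM. Of the 6 erythroid and mast cell markers only Kit, a receptor of blood progenitors and mast cells, passed the filter. It rose, from 9.27 to 10.3 CPM in control to 18.6 to 23.7 CPM in AclyM-KO libraries (1.07, edgeR adjusted p = 0.000505). Cpa3 had at most 6 counts in a library, and Hba-a1 and Mcpt4 were at 0 counts in every library. The part of proliferation, of Atf4 and of the cell markers in the differences of the members was not tested.

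**Figure D5:**
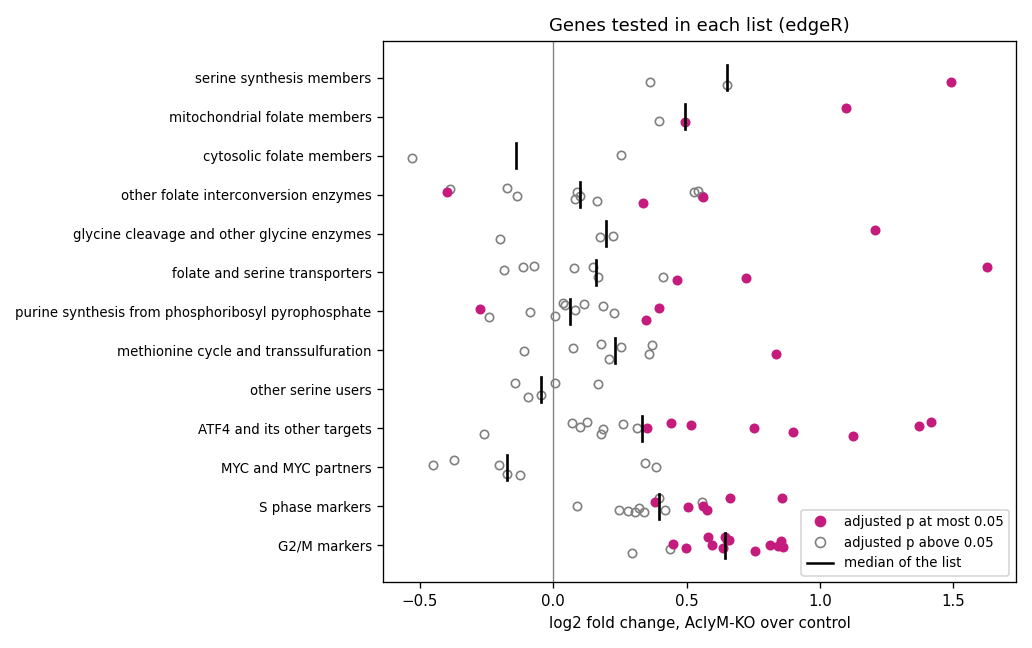
Log2 fold change of AclyM-KO over control (horizontal axis) for the genes tested in each list (rows), filled at an edgeR adjusted p of at most 0.05, with a bar at the median of the list. Serine synthesis, mitochondrial folate, ATF4, S phase and G2/M lists lie to the right (medians 0.65, 0.49, 0.33, 0.40 and 0.64). Purine synthesis and other serine users lie around 0 (medians 0.06 and -0.05).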

How the data were processed

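RNA of naive BMDMs was sequenced in 3 control and 3 AclyM-KO libraries. The authors prepared strand-specific mRNA libraries, aligned reads to mm10 with STAR 2.5.2b (CASAVA 1.8.2 is also named in the submitters' processing notes), filtered alignments on mapping quality with SAMtools and summed reads per RefSeq transcript with HOMER2. The deposited values are these raw counts, neither normalized nor pooled, for 35745 transcripts, and HOMER2 was run with default settings, whose strand option is not spelled out in the sources used here. Of 12 value columns, 6 belong to these libraries and 6 were not used. A read on a shared exon can be counted for several transcripts.

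Symbols came from a RefSeq table (35435 transcripts) and GENCODE M21 (193), and 117 transcripts had none. Of 24562 symbols 6089 had several transcripts, and the one with the highest total was used. The 11470 genes kept by filterByExpr were fitted in R 4.3.3 with edgeR 4.0.16 (TMM, a model with genotype alone, quasi-likelihood test). P-values were adjusted over all of them by Benjamini-Hochberg, with a threshold of 0.05. The biological coefficient of variation was 8.9%. Totals were 11120034 to 13598887 in control and 11386212 to 25814853 in AclyM-KO libraries. CPM and RPKM were computed from the deposited counts with TMM-scaled totals, RPKM with GENCODE lengths of the matched transcripts, and they were used for description. Intervals of single counts cover counting error only. Ratios were compared by two-sided exact permutation over libraries.

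The members and lists were chosen with earlier results of these data known. Named were all 9 members, up to 3 genes per list and direction with the largest differences past the threshold, Mthfd2l, Aldh1l1, Atf4, Myc and Mki67, and for each member the 2 genes with the closest profile. A few genes that this rule names are not reported here. Alternatives were DESeq2 1.42.0, limma-voom (limma 3.58.1) with sample weights, RLE factors, total counts only, no filter, at least 10 counts in every library, a replicate block, each library left out, summed or separate transcripts, AclyM-KO replicate 2 thinned to 11753905 counts, and a threshold of 0.01. The tests were tried on simulated data. Promoter windows came from a RefSeq table in GRCm38.p6, the assembly of mm10.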

Additional observations from a re-analysis of the deposited data

How the results depend on the processing

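Phgdh, Shmt2 and Mthfd2 rose past the threshold in each of 16 alternative fits (log2 fold changes of 1.13 to 1.64, 0.46 to 0.53 and 0.71 to 1.27, largest adjusted p 0.0299, 0.0384 and 0.0409), and 3 members also rose at a threshold of 0.01, which 2.99% of genes tested passed upwards. The members that rose numbered 3 to 4 and those that fell 0 to 1 when a library was left out, in fits where 3.13% to 9.56% of genes tested rose and 2.02% to 8.92% fell. Psat1 passed in 3 of 16 fits, with no filter (0.65, adjusted p = 0.00755), with the replicate block (0.62, adjusted p = 0.00503) and without AclyM-KO replicate 1, while Psph, Mthfd1l and Mthfd1 passed in none. Shmt1 fell past the threshold only without AclyM-KO replicate 2 (-0.94), and after thinning that library it was at -0.72 (adjusted p = 0.111). Psph changed sign with limma-voom (-0.029) and without AclyM-KO replicate 2 (-0.13), its range with a library left out being -0.13 to 0.58. The cause of these changes was not tested. The difference of Shmt2 over Shmt1 was 0.93 to 1.47 with a library left out and that of Mthfd1l over Mthfd1 -0.07 to 0.18.

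With total counts only, the median of all genes moved to 0.04, 919 genes rose and 508 fell, beside 768 and 648, and of the other pathway genes 11 rose and 1 fell, in place of 9 and 2 (11 and 3 without AclyM-KO replicate 2). Calls over all genes were 1416, against 2187 with limma-voom and 598 to 2136 with a library left out. Correlations of same-numbered deviations were 0.09, 0.11 and -0.05, and those of other pairs -0.132 to 0.0699. With no reference for such values, they do not settle whether replicate numbers pair the libraries. The replicate block gave 4 members that rose (7.52% of genes rose in that fit) and changed no other member's call. Ratio differences under it were 1.19 (exact permutation p = 0.25, the smallest that 3 pairs allow) and 0.09 (exact permutation p = 1).

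Aldh1l2 and Shmt1 had the fewest counts of the members in total, 6 to 62 and 14 to 73 per library. In control libraries Phgdh had fewer counts than Shmt1, 24 to 27 against 31 to 38. Replicates were described as technical, so the spread between mice was not measured.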
